A study of Mus musculus with 8 samples.

Results

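Transcripts of 10 genes of the transforming growth factor beta (TGF-beta) pathway and of the inhibitor of DNA binding (ID) family were followed in tumor-associated macrophages (TAMs), among 23413 gene symbols counted. They are the ligand Tgfb1, the receptors Tgfbr1 and Tgfbr2, the signal carrier Smad3, the inhibitors Smad7 and Skil, the target Tgfbi, and Id1, Id2 and Id3. The genes were selected on earlier results of these same counts, among them the I.P. difference of Id3 from the DMSO mice, so their own values are given as a description, with no p, and a count of them that meet a criterion supports nothing. TAMs were sorted as CD45+F4/80+CD11b+Gr-1- cells from subcutaneous tumors of B16F10, a mouse melanoma line, and 1 library was made per mouse. The vehicle DMSO was given to 2 mice, the thiopeptide antibiotic thiostrepton was given intraperitoneally (I.P.) to 4 mice, and 2 mice received thiostrepton at 20 mg/kg by paratumor subcutaneous injection (S.C., called IS in the sample labels). All mice were male C57BL/6, 8 to 10 weeks old when engrafted, dosed on days 6 and 12, and their tumors were taken on day 18. Which of the study's I.P. doses these mice were given, and by which of the routes each DMSO mouse was dosed, is not given in the sources used here. A difference between the routes therefore cannot be told apart from one of dose. Where a DMSO mouse was dosed by another route, drug and injection site cannot be told apart either. The comparisons ask how each route of thiostrepton altered the TAM transcriptome, and both use the same DMSO mice.

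TGF-beta binds the type II receptor TGFBR2, which recruits and phosphorylates TGFBR1, and the active receptors phosphorylate SMAD2 and SMAD3, which enter the nucleus with SMAD4. SMAD7 blocks the receptors, SKIL holds SMAD complexes in a repressed state, and both are classical feedback targets of the pathway. ID proteins lack a DNA-binding region and capture E proteins, and their genes are classical targets of bone morphogenetic protein (BMP) signals carried by SMAD1 and SMAD5. Macrophages both make TGF-beta and respond to it.

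Short stretches of the Id3, Id2 and Tgfbi promoters are shown because they hold the letters that SMAD proteins are known to bind. The 250 bases before the RefSeq start (GRCm38.p6) were searched on both strands for the SMAD box CAGAC and for GGCGCC, a GC-rich BMP element, and capitals mark the matches.
Id3, chr4:136143642-136143671, plus strand: ctgtcctcggcgtCAGACcagcctaaggaa
Id3, chr4:136143741-136143770, plus strand: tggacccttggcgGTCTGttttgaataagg
Tgfbi, chr13:56609336-56609365, plus strand: ggcttcctgcaGTCTGctagagagctatct
Tgfbi, chr13:56609493-56609522, plus strand: gtggcgtgGTCTGggaGGCGCCggctgccc
Id2, chr12:25096306-25096335, minus strand: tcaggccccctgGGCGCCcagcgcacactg
The matches in Id3 began 167 and 68 bases before the start, and both stretches lie in the first exon of a longer GENCODE vM21 transcript of the gene. The Id2 stretch also lies inside the GENCODE span of its gene, which on the minus strand begins at 25097140. A SMAD box was found in 42.2% of 32851 promoters and 2 or more in 11.7%, while GGCGCC was found in 9.59%, so such matches are common. The AP-1 letters TGANTCA (6.75% of promoters), the CRE letters TGACGTCA (1.55%) and the CArG box (1.47%) were not in the windows of the 7 members with an entry. A SMAD box was also found in Tgfbr2 and in 1 of 2 promoters of Tgfbr1, whose other promoter held GGCGCC, while Tgfb1 and Smad3 held neither. Id1, Skil and Smad7 had no entry. No AP-1, CRE or CArG match overlaps the printed stretches, and in Tgfbi the SMAD box and GGCGCC lie side by side without overlap.

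The libraries held between 14127506 and 17577466 counts on genes, so the floor of 3 counts used here corresponds to 0.171 to 0.212 CPM, that is, counts scaled to a common library size, and covers counting error only. CPM below were scaled by edgeR's TMM method. The macrophage genes Cd68 and Csf1r were at 2376 to 3396 and 353 to 1128 CPM over the 8 mice. Emr1 and Itgam encode surface markers used in the sort. Emr1 was at 318 CPM in I.P. mouse 1 and 360 CPM in S.C. mouse 1, against 584 to 1020 CPM in the other mice. Csf1r was also lowest in I.P. mouse 1 and S.C. mouse 1, whereas Cd68 was highest there. Itgam ranged from 103 CPM in S.C. mouse 1 to 384 CPM in S.C. mouse 2. The part of these shifts in the differences given below was not tested. Marker lists of other cells differed between libraries. The summed level of 7 melanocyte genes was 2986 CPM in S.C. mouse 1 and 1671 CPM in I.P. mouse 4, against 461 to 977 CPM in the other mice. For 6 neutrophil genes it was 308 CPM in S.C. mouse 2 against 37.3 to 80.7 CPM, and 8 fibroblast genes summed to at most 2.16 CPM in any mouse. Both S.C. mice lay above both DMSO mice for the sums of the B cell (29.8 and 25.5 against 19.7 and 10.3 CPM), T and NK cell (35.9 and 22.6 against 20.2 and 8.79 CPM), dendritic cell (30.5 and 9.39 against 7.26 and 1.67 CPM) and epithelial lists (3.63 and 4.44 against 0 and 0.115 CPM). The endothelial list was at 3.62 to 10.8 CPM in the 8 mice. In sorted bulk samples, fewer cells of a type and less RNA per cell cannot be told apart.

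Id3 showed the largest differences of the 10 genes in both comparisons with DMSO. Id3 lies on chromosome 4 from 136143497 to 136145755 and encodes an E protein antagonist that restrains differentiation in many lineages. It was at 0.678 and 1.21 CPM in the DMSO mice, at 45.2, 1.52, 1.86 and 3.44 CPM in I.P. mice 1 to 4, and at 15.3 and 15.1 CPM in the S.C. mice. These levels rest on 10 and 21 counts in the DMSO mice, 710, 25, 33 and 59 counts in the I.P. mice, and 227 and 207 counts in the S.C. mice. Every treated mouse lay above both DMSO mice, and I.P. mouse 1 alone stood far above the other I.P. mice. I.P. mice differed from DMSO mice 13.4-fold (log2 3.74, standard error 1.59) and S.C. mice 15.6-fold (log2 3.97, standard error 0.72). Without I.P. mouse 1 the I.P. log2 fold change was 1.26, and without either S.C. mouse the S.C. value was 3.95 or 3.93. The S.C. mice lay between I.P. mouse 1 and the other I.P. mice, and the log2 fold change of S.C. against I.P. mice was 0.22 (standard error 1.27), or 2.73 without I.P. mouse 1.

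Id1 and Id2 differed far less. Id1, a small gene on chromosome 2 from 152736251 to 152737410, was at 1.29 and 1.55 CPM in the DMSO mice, 4.59, 0.791, 3.10 and 2.63 CPM in the I.P. mice, and 2.29 and 4.95 CPM in the S.C. mice. I.P. mouse 2 was below both DMSO mice, whereas the other treated mice were above them. The log2 fold change of Id1 was 0.95 (standard error 0.73) by I.P. and 1.32 (standard error 0.97) by S.C., and the S.C. value was 0.62 without S.C. mouse 2 and 1.77 without S.C. mouse 1. Id2, on chromosome 12 from 25093799 to 25097140, is the ID gene best known in innate lymphoid and dendritic cell development. It was at 629 and 661 CPM in the DMSO mice, 997, 637, 707 and 733 CPM in the I.P. mice, and 819 CPM in each S.C. mouse. I.P. mouse 1 was again the highest and I.P. mouse 2 lay between the DMSO mice. For Id2 the log2 fold change was 0.25 (standard error 0.24) by I.P., 0.32 (standard error 0.28) by S.C. and 0.09 (standard error 0.25) for S.C. against I.P. mice, where scaling by library size only turned it to -0.003.

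**Figure D1:**
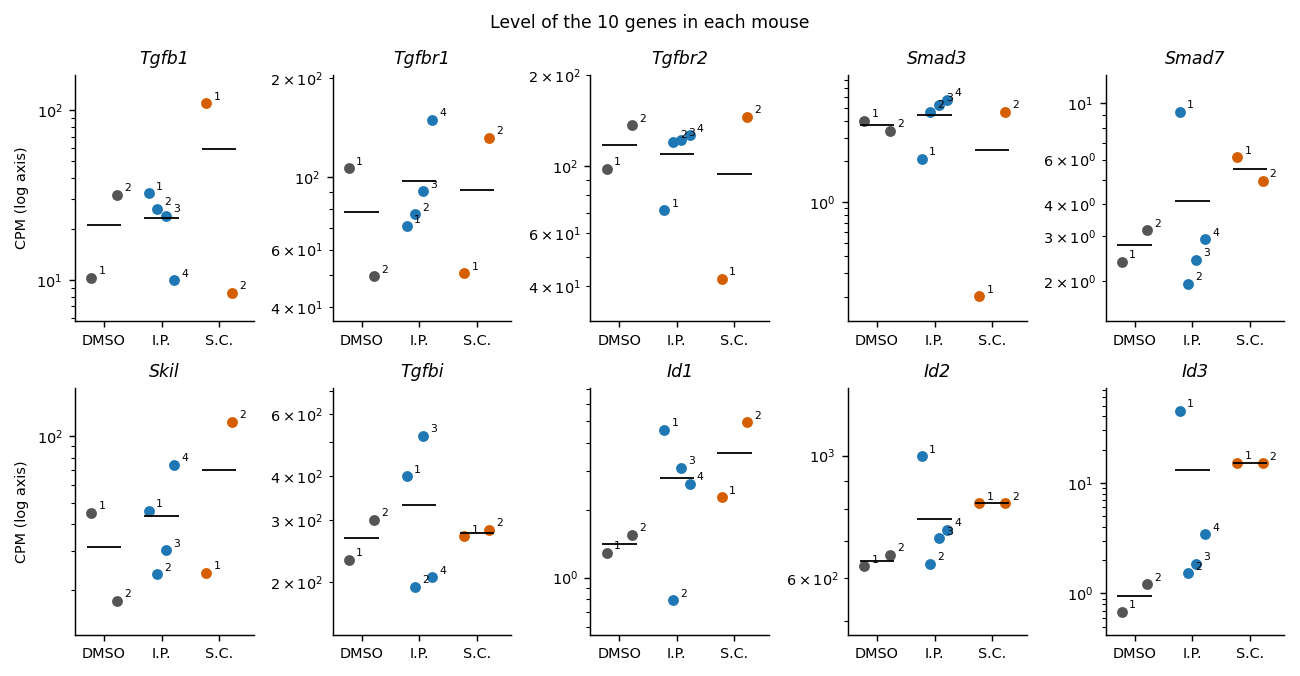
Level of each of the 10 genes in CPM (log axis, scale differs by gene) in the DMSO, I.P. and S.C. mice, with 1 numbered point per mouse and a line at the group mean. Id3 was above both DMSO mice in all 6 treated mice, with I.P. mouse 1 at 45.2 CPM, whereas Tgfb1, Skil and Smad3 differed most between the S.C. mice themselves.

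The ligand gene Tgfb1 did not separate the groups. Tgfb1 lies on chromosome 7 from 25687002 to 25705077 and was at 10.3 and 31.9 CPM in the DMSO mice, 32.5, 26.4, 24.0 and 9.98 CPM in the I.P. mice, and 110 and 8.44 CPM in the S.C. mice. The highest and the lowest level of the 8 mice were thus the S.C. mice. The log2 fold change was 0.13 (standard error 0.54) by I.P. and 1.45 (standard error 1.16) by S.C., and the S.C. value was -1.35 without S.C. mouse 1 and 2.31 without S.C. mouse 2. Without DMSO mouse 1 the I.P. value was -0.46, and without DMSO mouse 2 it was 1.17. In S.C. mouse 1, where Tgfb1 was at 110 CPM, the melanocyte, dendritic cell, B cell and T and NK cell sums were also the highest of the 8 mice. Not every gene of these lists was high there, since Cd4 (0.0673 CPM) and Xcr1 (0.135 CPM) were at their lowest of the 8 mice. The CD45+F4/80+ gate is meant to leave out melanoma cells and lymphocytes. The part of such cells in the level of Tgfb1 was not tested.

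Receptor transcripts varied between mice of each group without separating the groups. Tgfbr1, which encodes the type I receptor kinase, was at 106 and 49.7 CPM in the DMSO mice, 70.7, 76.9, 90.5 and 150 CPM in the I.P. mice, and 50.8 and 132 CPM in the S.C. mice. Tgfbr2, which encodes the ligand-binding type II receptor, was at 97.6 and 136 CPM in the DMSO mice, 71.2, 120, 122 and 126 CPM in the I.P. mice, and 42.2 and 145 CPM in the S.C. mice. For both genes S.C. mouse 2 was high and S.C. mouse 1 low, and the groups overlapped. The log2 fold changes of Tgfbr1 were 0.31 (standard error 0.40) by I.P. and 0.21 (standard error 0.59) by S.C. Those of Tgfbr2 were -0.09 (standard error 0.29) and -0.34 (standard error 0.61). The S.C. value of Tgfbr1 was 0.73 without S.C. mouse 1 and -0.68 without S.C. mouse 2, and that of Tgfbr2 was 0.28 and -1.53. The I.P. value of Tgfbr1 was 0.96 without DMSO mouse 1 and -0.13 without DMSO mouse 2.

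Smad3, the receptor-activated SMAD of the group, was a low transcript. It was at 4.0 and 3.39 CPM in the DMSO mice, 2.10, 4.68, 5.25 and 5.72 CPM in the I.P. mice, and 0.202 and 4.66 CPM in the S.C. mice. S.C. mouse 1 stood apart with 3 counts, which is at the floor, while the other S.C. mouse was above both DMSO mice. The log2 fold change was 0.26 (standard error 0.51) by I.P. and -0.62 (standard error 1.42) by S.C., and the latter was 0.31 without S.C. mouse 1 and -4.20 without S.C. mouse 2.

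The inhibitor Smad7 followed the pattern of Id3 more closely than that of the receptors. Smad7 was at 2.37 and 3.16 CPM in the DMSO mice, 9.24, 1.95, 2.43 and 2.92 CPM in the I.P. mice, and 6.12 and 4.95 CPM in the S.C. mice. Both S.C. mice were above both DMSO mice, and of the I.P. mice only mouse 1 was. The log2 fold change was 0.56 (standard error 0.70) by I.P., or -0.19 without I.P. mouse 1, and 0.97 (standard error 0.80) by S.C. Skil, on chromosome 3 from 31095058 to 31122577, encodes the SMAD corepressor SnoN and was at 44.8 and 17.9 CPM in the DMSO mice, 45.9, 23.6, 30.4 and 74.2 CPM in the I.P. mice, and 24.0 and 116 CPM in the S.C. mice. S.C. mouse 2 was the highest of all and S.C. mouse 1 lay between the DMSO mice. Skil had log2 fold changes of 0.47 (standard error 0.52) by I.P. and 1.14 (standard error 0.83) by S.C., and the S.C. value was -0.44 without S.C. mouse 2 and 1.87 without S.C. mouse 1. By I.P. it was -0.05 without DMSO mouse 2 and 1.28 without DMSO mouse 1. The neutrophil sum was also highest in S.C. mouse 2, although the Gr-1- gate is meant to leave neutrophils out. In I.P. mouse 4, the next highest for Skil, that sum was 62.0 CPM, of which Csf3r made up 58.1 CPM. There S100a8 was at 1.63, S100a9 at 1.81 and Ngp at 0.35 CPM. The part of neutrophils in the level of Skil was not tested.

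Tgfbi, on chromosome 13 from 56609523 to 56639562, encodes a secreted adhesion protein named for its induction by TGF-beta. It was at 232 and 301 CPM in the DMSO mice, 400, 194, 522 and 207 CPM in the I.P. mice, and 270 and 282 CPM in the S.C. mice. The I.P. mice lay on both sides of the DMSO mice, 2 above and 2 below, and both S.C. mice lay between the DMSO mice. The log2 fold change was 0.30 (standard error 0.42) by I.P. and 0.03 (standard error 0.30) by S.C., where scaling by library size only gave -0.13 while moving the median of all genes tested from 0.02 to -0.14. The summed fibroblast genes were near 0 in each library, as given above.

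Per exonic kilobase, the mean levels of the genes in the DMSO mice covered a wide range. Id2 led with 265 CPM per kb, followed by Tgfbi with 70.7, Tgfbr2 with 14.3, Tgfbr1 with 11.9, Tgfb1 with 4.18, Skil with 3.24, Id1 with 1.22, Smad3 with 0.667, Smad7 with 0.612 and Id3 with 0.526 CPM per kb. Neighbors whose DMSO mice overlapped were Tgfbr2 and Tgfbr1, Tgfb1 and Skil, Smad3 and Smad7, and Smad7 and Id3. Id3, the lowest of the 10 by its DMSO mean though not in DMSO mouse 2, where Smad3 was lower, reached 25.3 CPM per kb in I.P. mouse 1.

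Genes were called by the study's criterion, an unadjusted P under 0.05 with at least a 2-fold change. Of the 10 genes, all of which passed the filter on low counts, Id3 alone met it by I.P. and again by S.C., both times upward, and 0 met it for S.C. against I.P. mice. Over all genes tested, 1.53% were called up and 0.468% down by I.P., 2.29% up and 2.77% down by S.C., and 2.41% up and 4.64% down for S.C. against I.P. mice. As the genes were chosen with these contrasts in view, nothing is read from the count. Over the 10 genes the median log2 value was 0.31 by I.P., 0.65 by S.C. and 0.16 for S.C. against I.P. mice, beside 0.02 over all genes tested in each. I.P. and DMSO mice did not overlap for 1 of the 10, Id3, and for 14.1% of all genes tested. S.C. and DMSO mice did not overlap for 4, Smad7, Id1, Id2 and Id3, each higher in S.C. mice, beside 34.3% of all genes. S.C. and I.P. mice did not overlap for 0 of the 10, beside 18.5% of all genes.

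**Figure D2:**
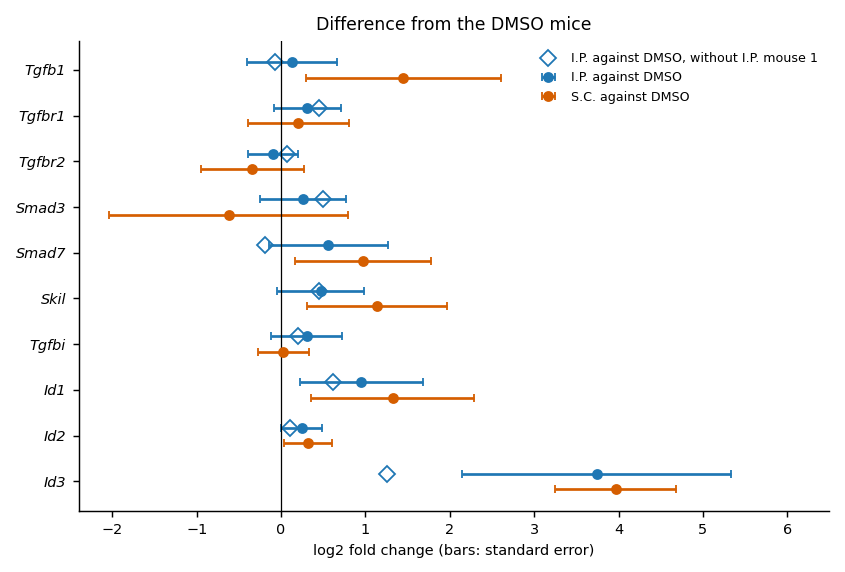
Log2 fold change of the 10 genes in I.P. and S.C. mice against the same DMSO mice, with bars of 1 standard error, and open diamonds for I.P. mice without mouse 1. Id3 lies at 3.74 and 3.97, and its I.P. value at 1.26 without I.P. mouse 1, and the widest bars are those of Id3 by I.P. (1.59) and Smad3 by S.C. (1.42).

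The wider pathway was described by 70 further genes, none of them among the 10. In each comparison 45 of them passed the filter, though not all the same ones. This list too was chosen with earlier results of these data known. Its counts are therefore a description and no test of the pathway. By I.P., 1 of the 45 met the criterion, upward, and 0 downward, and 243 of all 12174 genes tested did. This was Gdf15, which encodes a stress-induced distant member of the TGF-beta family. Gdf15 was at 129 and 122 CPM in the DMSO mice, 711, 275, 217 and 254 CPM in the I.P. mice, and 500 and 288 CPM in the S.C. mice. All 6 treated mice were above both DMSO mice. The I.P. log2 fold change of Gdf15 was 1.52 (standard error 0.49, edgeR adjusted p = 0.98). Leaving out I.P. mouse 1 gave 0.98, under 2-fold. Without DMSO mouse 1 or 2 the log2 value was 1.57 or 1.49 and the gene was no longer called. Ski, a SMAD corepressor related to SnoN, was at 0.96 on the log2 scale (standard error 0.45, edgeR adjusted p = 0.98), and Lrrc33, which tethers latent TGF-beta on myeloid cells, at -0.63 (standard error 0.28, edgeR adjusted p = 0.98), and neither was called.

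By S.C., 7 of the 45 rose by the criterion and 0 fell, beside 2.29% of all genes up and 2.77% down, and at an adjusted p under 0.05 edgeR's quasi-likelihood test called 0 (0% of all genes in each of the 3 comparisons). At an unadjusted P under 0.05 there were 8 of the 45 and 632 of 11680 genes, and the likelihood ratio test and DESeq2 gave 3 and 4 of the 45 an adjusted p under 0.05. The 7 were the ligand Gdf15, the inhibitors Ski, Tgif1 and Bambi, the targets Tsc22d1 and Junb, and the helix-loop-helix repressor Hes1. Tsc22d1, a leucine zipper gene known for its response to TGF-beta, was at 5.36 and 6.03 CPM in the DMSO mice, 17.5, 6.14, 5.53 and 7.93 CPM in the I.P. mice, and 37.7 and 41.1 CPM in the S.C. mice. The S.C. mice were far above every other mouse, which gave a log2 fold change of 2.76 with a standard error of 0.43 (edgeR adjusted p = 0.662). Bambi, a decoy receptor without kinase activity, was at 8.14 and 5.17 CPM in the DMSO mice, 16.2, 6.99, 6.26 and 3.91 CPM in the I.P. mice, and 22.2 and 31.8 CPM in the S.C. mice. For Bambi the log2 difference was 2.0 with a standard error of 0.53 (edgeR adjusted p = 0.747). Here too both S.C. mice exceeded the others, with I.P. mouse 1 next.

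All 7 genes had the S.C. mice and I.P. mouse 1 as their 3 highest mice. For the S.C. against the DMSO mice this follows from how the 7 were called. Junb, an AP-1 subunit that responds to TGF-beta and to many other stimuli, was at 297 and 140 CPM in the DMSO mice, 1590, 155, 161 and 239 CPM in the I.P. mice, and 1104 and 1478 CPM in the S.C. mice. Hes1 was at 0.814 and 0.230 CPM in the DMSO mice, 9.11, 0.669, 1.19 and 1.98 CPM in the I.P. mice, and 6.32 and 3.42 CPM in the S.C. mice. For both genes the highest I.P. mouse was mouse 1 and the other I.P. mice stayed below the S.C. mice. The S.C. log2 fold changes were 2.54 (standard error 0.47) for Junb, 3.19 (standard error 1.14) for Hes1, 1.62 (standard error 0.37) for Gdf15, 1.42 (standard error 0.41) for Ski and 1.37 (standard error 0.33) for Tgif1, a corepressor of SMAD2 and SMAD3. Their edgeR adjusted p was 0.747, and 0.846 for Hes1.

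By role, 3 of 12 inhibitors, 2 of 8 targets, 1 of 5 ligands and 1 of 4 ID, E and HES genes rose by S.C., and 0 of 7 receptors, 0 of 4 SMAD genes and 0 of 5 genes of ligand storage and activation did. The E protein genes Tcf3, Tcf4 and Tcf12, whose products the ID proteins bind, were not called, with S.C. log2 values of 0.09, -0.72 and 0.09. Smad4, the partner shared by both SMAD branches, was not called, at 0.80 (standard error 0.45), with 57.2 and 62.2 CPM in the DMSO mice and 66.1 and 145 CPM in the S.C. mice. Over the 45 genes tested in each comparison the I.P. median log2 value was 0.24 and the S.C. median 0.61, beside 0.02 over all genes tested. Both S.C. mice were above both DMSO mice for 18 of the 45 and below for 3, while the groups did not overlap for 34.3% of all genes tested, 1998 above and 2008 below. With 1 mouse left out, 4 were called without DMSO mouse 1 (Gdf15, Tgif1, Tsc22d1 and Junb) and 4 without DMSO mouse 2 (Gdf15, Tsc22d1, Junb and Thbs1). Without S.C. mouse 1 or 2, a fit in which the lone S.C. mouse is assumed to vary like the DMSO mice, 19 (14 up and 5 down, of 47 tested) and 16 (14 up and 2 down, of 50 tested) were called, all 7 among them. The same fits called 2989 and 3432 of all genes, against 591 with all mice.

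**Figure D3:**
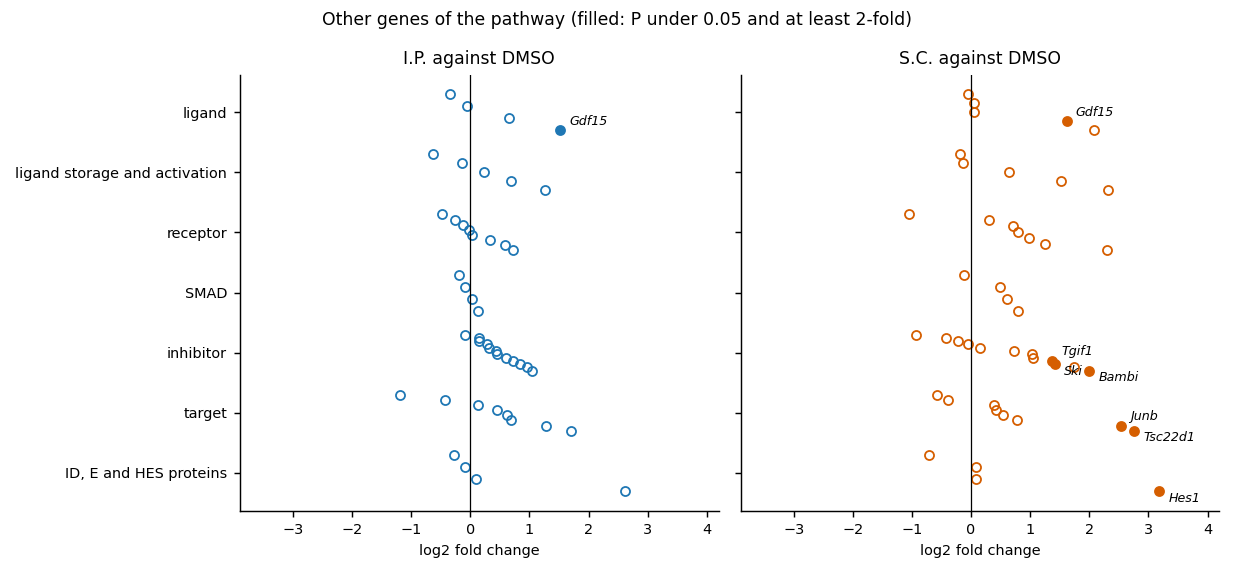
Log2 fold change of the 45 genes of the wider pathway tested in each comparison, by role, in I.P. mice (left) and S.C. mice (right) against the same DMSO mice. Filled points are genes with P under 0.05 and at least a 2-fold change. Only Gdf15 is filled by I.P., and 7 genes are filled by S.C., all to the right of 0.

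Between the routes, 3 of the 45 were higher in S.C. than in I.P. mice by the criterion and 0 were lower. They were Tsc22d1 (log2 2.09, standard error 0.49, edgeR adjusted p = 0.277), Bambi (1.70, standard error 0.56, edgeR adjusted p = 0.448) and Eng (1.55, standard error 0.63, edgeR adjusted p = 0.549), which encodes the accessory receptor endoglin. Eng was at 2.80, 3.04, 5.19 and 3.09 CPM in the I.P. mice and 15.7 and 4.95 CPM in the S.C. mice, so its difference rests on S.C. mouse 1, without which the log2 value was 0.48. Eng was also no longer called without I.P. mouse 1, 2 or 4 (log2 1.45, 1.48 and 1.49), nor was Bambi without S.C. mouse 2 (1.41). Tsc22d1 was called in each fit that left out 1 of the 6 mice, with log2 values from 1.88 to 2.59. Acvrl1, a type I receptor for BMP9 and TGF-beta, was at 0.83 (standard error 0.30, edgeR adjusted p = 0.492), under 2-fold and not called. The count was 5 without I.P. mouse 1, and 9 and 6 without S.C. mouse 1 and 2. For S.C. against I.P. mice, 6 of the 45 and 1049 of all 12206 genes had an unadjusted P under 0.05, and the criterion called 6.67% of the 45 beside 7.05% of all genes.

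Id3, Smad7 and Id2 were highest in the mice in which immediate early genes were highest. The list held Fos, Fosb, Jun, Egr1, Atf3, Ier2 and Dusp1, which respond within minutes to growth factors, stress and tissue handling. Their summed level was 1948 and 1129 CPM in the DMSO mice, 6109, 1356, 1265 and 2042 CPM in the I.P. mice, and 4925 and 6417 CPM in the S.C. mice. I.P. mouse 1 and both S.C. mice were thus above the others, and the same 3 mice had the 3 highest levels of Id3 (15.1 to 45.2 CPM against 0.678 to 3.44), Smad7 (4.95 to 9.24 CPM against 1.95 to 3.16) and Id2 (819 to 997 CPM against 629 to 733). For Id1 they did not, since S.C. mouse 1 at 2.29 CPM was below I.P. mice 3 and 4. By S.C., 6 of the 7 immediate early genes rose by the criterion, beside 2.29% of all genes tested, and by I.P. 0 of 7 did, beside 1.53%. This list too was chosen with earlier results of these data known. Jun was not among the 6, at 527 and 352 CPM in the DMSO mice and 475 and 665 CPM in the S.C. mice. For Jun, S.C. mouse 1 thus lay between the DMSO mice. The same 3 mice also led for the 7 called pathway genes, which were called for a difference between the S.C. and DMSO mice. That the S.C. mice led the DMSO mice there follows from this choice. The part of the immediate early response in the differences of Id3, Smad7 and the called pathway genes was not tested. In the sample titles, I.P. mouse 1 and the S.C. mice also carry the 3 lowest numbers. What these numbers stand for is not given, and their part in the pattern was not tested.

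**Figure D4:**
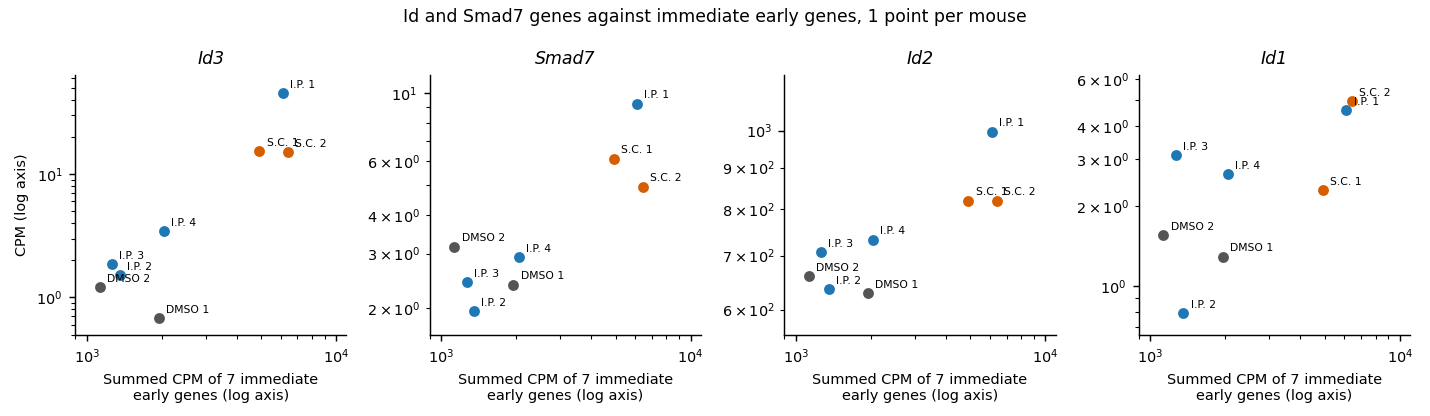
Level of Id3, Smad7, Id2 and Id1 against the summed level of 7 immediate early genes, both in CPM on log axes, with 1 point per mouse colored by group. I.P. mouse 1 and the S.C. mice, at sums of 4925 to 6417 CPM, hold the highest Id3, Smad7 and Id2 levels, whereas Id1 of S.C. mouse 1 lies among the I.P. mice.

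The receptors, Skil and Tgfb1 were set beside a second property of the libraries, the balance of long and short transcripts. Over 9265 genes whose mean reached 5 CPM, split into 5 equal bins, the median log2 deviation of the longest bin less that of the shortest was -0.59 in S.C. mouse 1, 0.33 in I.P. mouse 4 and 0.31 in S.C. mouse 2, against -0.16 to 0.07 in the others. The longest transcripts of Tgfbr1 (5756 bases), Skil (6717 bases) and Tgfbr2 (8092 bases) stand at percentiles 85.6, 90.6 and 95.2 of length, and that of Tgfb1 (2573 bases) at 33.3. Tgfbr1 and Skil were highest in I.P. mouse 4 and S.C. mouse 2, the libraries richest in long transcripts, and Tgfb1 was highest in S.C. mouse 1 and lowest in S.C. mouse 2 and I.P. mouse 4. Not every mouse followed this order. Tgfbr2 was higher in DMSO mouse 2 (136 CPM) than in I.P. mouse 4 (126 CPM). Skil was lowest in DMSO mouse 2 (17.9 CPM), below S.C. mouse 1 (24.0 CPM). With an offset for length and GC content, the S.C. log2 fold changes of the 10 genes each moved by less than the spread between mice. For Tgfb1, Skil, Tgfbr2 and Smad3 that spread was wide, because the S.C. mice differed from each other. The offset therefore cannot show whether length had a part. By GC content, the highest bin less the lowest was 0.62 in I.P. mouse 1 and 0.20 in S.C. mouse 1. It was -0.15 to 0.03 in the others, with S.C. mouse 2 at -0.15. Id3 (55.6% GC) and Smad7 (56.9% GC) stand at percentiles 83.5 and 88.9 of GC content. Id2, which was also highest in I.P. mouse 1, stands at percentile 29.1. The part of either property in a single gene's level was not tested.

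**Figure D5:**
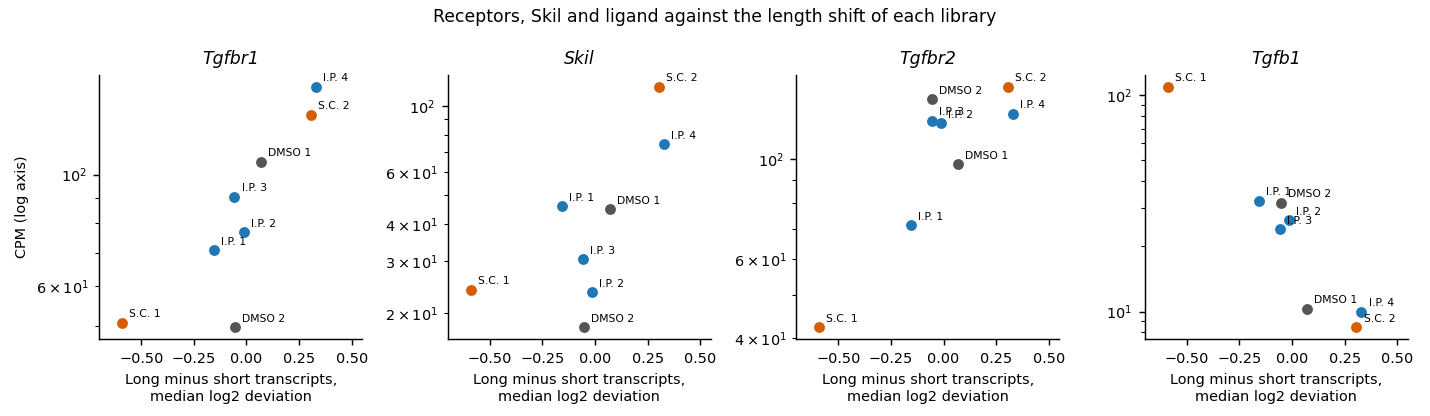
Level of Tgfbr1, Skil, Tgfbr2 and Tgfb1 (CPM, log axis) against the median log2 deviation of the longest less the shortest transcripts in each library, 1 point per mouse colored by group. S.C. mouse 1 at -0.59 has the lowest Tgfbr2 and the highest Tgfb1, and S.C. mouse 2 and I.P. mouse 4 on the right have the highest Tgfbr1 and Skil.

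The genes most like each of the 10 were named by the Pearson correlation of log2 CPM over the 8 mice, which share the libraries' depth and composition. Siah2, a ubiquitin ligase gene, was most like Id3 (r = 0.985), at 19.5 and 23.3 CPM in the DMSO mice, 56.0, 23.9, 22.7 and 25.1 CPM in the I.P. mice, and 46.0 and 42.2 CPM in the S.C. mice, followed by Cd2ap (0.982) and Mocs1 (0.978). Klf4, a zinc finger transcription factor gene, was most like Smad7 (r = 0.988), at 3.93 and 6.72 CPM in the DMSO mice, 149, 4.13, 4.06 and 7.88 CPM in the I.P. mice, and 49.4 and 27.7 CPM in the S.C. mice, followed by 1700094D03Rik (0.979). For both Siah2 and Klf4 the 3 highest mice were again I.P. mouse 1 and the S.C. mice. Without I.P. mouse 1 the genes named for Id3 had r of 0.966 to 0.975, and Atg2a (0.981), Agpat4 (0.979) and Gramd3 (0.977) came first. The 3 nearest genes of Tgfbr2, Smad3 and Tgfbi were likewise all replaced. Napsa, Ulk1 and Usf2 were most like Id2 (0.982 to 0.988), and Clec4e, Ms4a8a and Tep1 most like Id1 (0.930 to 0.932). Dync1i2, Ppia and P2ry6 were most like Tgfb1 (0.979 to 0.982), Macf1, Stat2 and Srr most like Tgfbr1 (0.969 to 0.972), and Uba1, Eri2 and Usp40 most like Tgfbr2 (0.984 to 0.988). For Smad3, Taok3 and Epg5 are given (0.989 and 0.988), each with a Spearman correlation of 0.833. Skil had Topors, Specc1l and Csf3r (0.972 to 0.979), the last of which is one of the neutrophil markers, and Tgfbi had Cnot6l, Clec4a2 and Eif3k (0.911 to 0.924). Among the 10 themselves, Id2 and Id3 (0.975), Smad7 and Id2 (0.946) and Smad7 and Id3 (0.935) were the most alike, and Tgfb1 and Tgfbr1 the least (-0.887).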

How the data were processed

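RNA-seq counts of TAMs from 8 mice were used, grouped by the treatment in their labels. Whole-number counts per gene were deposited by the authors without normalization. Their methods name bowtie2, RSEM and mm10, and their processing notes TopHat2 and edgeR. Genes were kept by filterByExpr (minimum count 10, minimum total 15), scaled by TMM and compared pairwise with the two-sided quasi-likelihood test (R 4.3.3, edgeR 4.0.16), with Benjamini-Hochberg adjustment over all genes tested. The standard error is the log2 fold change divided by the square root of F. Replicates are separate mice. Members and gene lists were chosen with earlier results of these data known. Of the wider pathway, the genes called and the 3 with the smallest P were named, with Smad4, Thbs1 and the E protein genes added after their values were seen. Log2 CPM for correlations had a prior count of 2, and some of the genes so named are not reported here. Positions and lengths are from GENCODE vM21 (98.3% of symbols) and promoters from RefSeq. Alternatives were other filters, scalings and tests including DESeq2 1.42.0, 1 fit of all groups, a replicate block, each mouse left out in turn, and, chosen after seeing the data, a length and GC offset and a crossed block. The test was tested on simulated data.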

Additional observations from a re-analysis of the deposited data

Results flagged for a closer look

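Among the 4 I.P. mice, a single mouse stood apart by Dixon's criterion (the gap to its nearest neighbor as a share of the group's range) for 7 of the 20 genes examined. Chance gives about 1 in 20 for genes taken without regard to their values, but these were named partly for their I.P. difference, which mouse 1 can carry, so the share of 7 is no test. I.P. mouse 1 was high for Id3 (45.2 CPM, others 1.52 to 3.44), Smad7 (9.24 CPM, others 1.95 to 2.92), Gdf15 (711 CPM, others 217 to 275), Junb (1590 CPM, others 155 to 239) and Hes1 (9.11 CPM, others 0.669 to 1.98). It was low for Tgfbr2, at 71.2 CPM with the others at 120 to 126. For Eng it was I.P. mouse 3, at 5.19 CPM with the others at 2.80 to 3.09. These genes come from the same libraries and are not independent.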

How the results depend on the processing

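Of the 45 pathway genes tested in each comparison, 1 was called by I.P., 7 by S.C. and 3 for S.C. against I.P. mice, and 0 in each at an adjusted p under 0.05. The alternatives test other numbers of the 70 listed genes (42 to 60), so a count can hold genes outside the 45. The I.P. count was 5 with no filter on low counts, 3 by the likelihood ratio test, 4 by DESeq2 and 2 with the length and GC offset, and leaving out each mouse gave 1 to 5 by I.P., 4 to 19 by S.C. and 2 to 9 between the routes. Under the other settings tried without a block, the counts were 7 to 10 by S.C. and 2 to 4 between the routes. With a replicate block the counts were 3, 7 and 2, with Hes1 lost and Thbs1 gained by S.C., and Bambi and Eng lost and Acvrl1 gained between the routes, and 6 by S.C. with the numbers crossed, Hes1 being lost. Deviations of same-numbered mice correlated at -0.187 to 0.169 and the labels give no pairing. Over all genes, 0 passed the adjusted threshold by quasi-likelihood in the analysis reported, with 418, 632 and 1049 at an unadjusted P under 0.05, and DESeq2 gave 19, 107 and 234 and the likelihood ratio test 10, 179 and 265. Quasi-likelihood gave 10 by S.C. with no filter, 4 by S.C. and 2 between the routes with all groups in 1 fit, and 19 (Junb among them) and 7 with the block. Fits that left out a mouse are not counted here, since some of them rest on 1 mouse in a group. Of the log2 values of the 10 genes, scaling by library size only moved 1 of 30 beyond the spread between mice (Id2 by S.C., 0.17), RLE size factors and the offset 0 of 30 each, the other filters, tests and fits 0 of 150 and the block 1 of 40 (Smad3 by I.P., -0.23). Leaving out a mouse moved 20 of 160 and changed the sign of 27. The cause of these shifts was not tested. Where mice of a group differed widely the spread was wide too, so an unmoved value there says little. With 2 mice in a group, their spread, and few counts for Id3, Id1, Smad3 and Smad7, small differences of these genes may have been missed. No limit of detection was computed.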
